A study of Felis catus with 25 samples.

Results

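The proteasome genes described here were the 44 rows whose symbol starts with PSMA, PSMB, PSMC, PSMD, PSME, PSMF or PSMG followed by a digit, of the 13949 gene symbols in the count tables. After the filter on low counts 42 of these 44 were among the 10699 genes tested. They comprised 6 alpha and 7 beta subunits of the 20S core, the inducible catalytic subunit PSMB10, 5 ATPases and 11 other subunits of the 19S regulatory particle, 6 assembly chaperones, 4 activators and the inhibitor PSMF1. The name rule also took in PSMC3IP, a meiotic recombination cofactor that is not a proteasome subunit and is counted among the 42. PSMA8, a testis-restricted alpha subunit, and PSMB11, a thymus-restricted beta subunit, had 3 and 6 counts over all 25 libraries and were not tested. PSMA2, PSMC1, PSMG4, PSMB8 and PSMB9 were not analysed here.

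The proteasome is the protease that degrades most ubiquitin-tagged proteins of the cytosol and nucleus. Its barrel-shaped 20S core is built from rings of alpha subunits, which gate the entry, and rings of beta subunits, of which PSMB5, PSMB6 and PSMB7 carry the active sites. The 19S particle binds ubiquitin chains, removes them and unfolds the substrate with a ring of ATPases, whereas the PSME proteins cap the core without using ubiquitin. Interferon-induced replacement of the catalytic subunits, together with PSME1 and PSME2, is known for its part in supplying peptides to MHC class I.

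Polyadenylated RNA came from cultured corneal fibroblasts of the cat (Felis catus), stromal cells that turn into contractile myofibroblasts when given transforming growth factor beta 1, or TGFb1. There were 5 libraries in each of 5 groups. FB was untreated at day 0 and is called quiescent in the labels. TGFb had received TGFb1, 1 ng/ml, for 2 days. In the other groups TGFb1, at a dose their labels do not give, was taken away at day 2 and a drug was given for 3 days, to day 5. Trog had 7.5 uM troglitazone, an agonist of the nuclear receptor PPAR-gamma, and TrogGW had 7.5 uM troglitazone plus 10 uM GW9662, a PPAR-gamma antagonist. UK had 30 uM UK-5099, which blocks pyruvate entry into mitochondria, so the doses of UK-5099 and troglitazone differ. No day-2 library without TGFb1 and no day-5 library without a drug was analysed here: TGFb1 cannot be told apart from 2 days in culture, nor each drug from TGFb1 removal and 3 more days. Whether the biological replicates of a group were separate cultures or donors is not in the labels, and the p-values reflect the spread among these libraries alone.

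Libraries held 14.8 to 25.2 M counts. Within a group their log2 CPM (counts divided by the scaled library total, in units of M counts) correlated across genes at 0.991 or more, except that UK replicate 5, the shallowest library, correlated with the other UK libraries at as little as 0.843. Results with the UK group are therefore given with and without this library. Of the 13 stromal fibroblast markers listed, 12 were in the files and 11 were tested, and COL1A1 and COL1A2 had means of 43666 and 30776 CPM in FB, but THY1 was at most 0.806 CPM in every library. Their summed level was 92143 to 108155 CPM in FB, 166690 to 204190 in TGFb, 25490 to 31026 in Trog, 7298 to 18512 in TrogGW, 159558 to 190852 in UK replicates 1 to 4 and 105021 in UK replicate 5. The corneal epithelial keratins KRT3 and KRT12 and the immune markers PTPRC, TYROBP and AIF1 were at 0 in all 25 libraries, and the levels of the other lists differed between groups. The 11 immune markers in the files summed to 11.9 to 14.2 CPM in FB, 21.3 to 29.6 in TGFb, 33.3 to 40.2 in Trog, 26.4 to 30.7 in TrogGW and 29.3 to 33.7 in UK replicates 1 to 4 (46.5 at most with replicate 5), with CSF1R at means of 0.152 in TGFb and 5.81 in Trog. The 5 corneal epithelial markers in the files, EPCAM among them with a mean of 9.24 in FB, summed to 7.91 to 10.6 in FB and 3.90 to 5.88 in TGFb, and to at most 5.37 in the other groups. The 6 vascular markers summed to 9.11 to 11.3 in FB, 7.06 to 9.64 in TGFb, 18.9998 to 23.9 in Trog, 39.6 to 55.3 in TrogGW, 11.9 to 15.2 in UK replicates 1 to 4 and 4.21 in replicate 5. The 8 corneal endothelial markers summed to 2756 to 3041 in FB, 3755 to 4226 in TGFb, 1799 to 1959 in Trog, 1659 to 1778 in TrogGW, 2877 to 3722 in UK replicates 1 to 4 and 1398 in replicate 5. The part of these marker levels in the results below was not tested. In these bulk samples fewer cells of a type and less RNA per cell cannot be told apart.

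A gene is said to have risen or fallen where edgeR's quasi-likelihood test between the 2 groups gave a Benjamini-Hochberg adjusted p under 0.05 over all 10699 genes, with TMM scaling, which assumes that the bulk of genes is equal between libraries. Scaling to library totals alone shifted the median log2 difference over all tested genes by -0.38 in TGFb against FB, 0.68 in Trog against TGFb, 0.85 in TrogGW against TGFb, 0.17 in TrogGW against Trog and, without UK replicate 5, by 0.21 in UK against TGFb and -0.46 in UK against Trog. Calls that differ between the scalings are therefore named, and ratios between genes of a library, which need no scaling, are given beside them. Such a shift moves all genes of a comparison by nearly the same amount. A rise could hardly be lost where the shift was upwards, nor a fall where it was downwards. A call kept under both scalings is therefore of weight only where it went against the shift. Changes are log2 fold changes ± SE and levels are CPM with TMM scaling, as mean ± SD where a mean is given. Levels are compared across libraries only, since they are not divided by gene length.

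In TGFb against FB the proteasome genes were mostly lower: 26 of the 42 fell, beside 35.3% of all genes tested, and 3 rose, beside 32.9%. Their median log2 fold change was -0.16, against -0.02 for all genes. With library totals alone 39 fell, beside 64.3% of genes, and 0 rose, beside 13.5%. The 26 genes that fell under TMM were among the 39. Library totals shifted all genes downwards here, so a fall could hardly be lost and this agreement is no separate support. The falls were small except for PSME2, PSME1, PSMG2 and PSMC3IP, and none of the 3 rises (PSME4, PSMD2 and PSMD1) was called with library totals: PSME4 was then at 0.07, PSMD2 at -0.07, and PSMD1 fell by 0.17 on the log2 scale.

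Against TGFb, the direction of most proteasome genes in the 2 troglitazone groups depended on the scaling. In Trog against TGFb 31 fell, beside 39.3% of genes, and 6 rose, beside 42.4%, while with library totals 32 rose, beside 71.9%, and 3 fell, beside 16.4%, so that 21 genes were called in opposite directions. In TrogGW against TGFb 28 fell, beside 39.3%, and 9 rose, beside 46.6%, while with library totals 36 rose, beside 75.9%, and 3 fell, beside 15.1%, with 22 in opposite directions. The share of all genes called in opposite directions is not given here, so the counts of 21 and 22 are not read as particular to the proteasome genes. Relative to the median of all genes the members' median was lower in both groups. Under TMM the members' median was -0.30 against 0.04 in Trog and -0.23 against 0.09 in TrogGW. With library totals it was 0.39 against 0.73 in Trog and 0.62 against 0.94 in TrogGW. A change of scaling moves all genes by nearly the same amount, so this difference is bound to be alike under both and is counted once. Genes that rose under both scalings were PSME1, PSME2, PSME4, PSMG2, PSMD5 and PSMD11 in both groups, and PSMC6, PSMD3 and PSMD12 in TrogGW. These were all the rises under TMM, and library totals shifted all genes upwards, so only the falls were put to a test. Genes that fell under both were PSMA3, PSMC3 and PSMC5 in Trog, and PSMA3, PSMB10 and PSMF1 in TrogGW.

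In UK against TGFb 2 genes rose, beside 16.9% of genes, and 2 fell, beside 15.2%, with all 5 UK libraries. Without UK replicate 5, 4 rose, beside 36%, and 34 fell, beside 35.3%. PSME1 and PSME4 rose and PSME3 and PSMD2 fell with and without it. With library totals and without that library, 8 rose, beside 54.6%, and 12 fell, beside 20%. PSME1, PSME2, PSME4 and PSMG2 rose under both scalings without replicate 5, and 12 genes fell under both, among them PSMA3, PSMA7, PSMB10, PSMC3, PSMC5, PSMD8, PSME3 and PSMF1. Library totals shifted all genes upwards here, so only the falls were put to a test. The share of all genes that fell under both is not given here. The comparisons of Trog, TrogGW and UK with TGFb share the TGFb libraries, so their values stand side by side only.

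**Figure D1:**
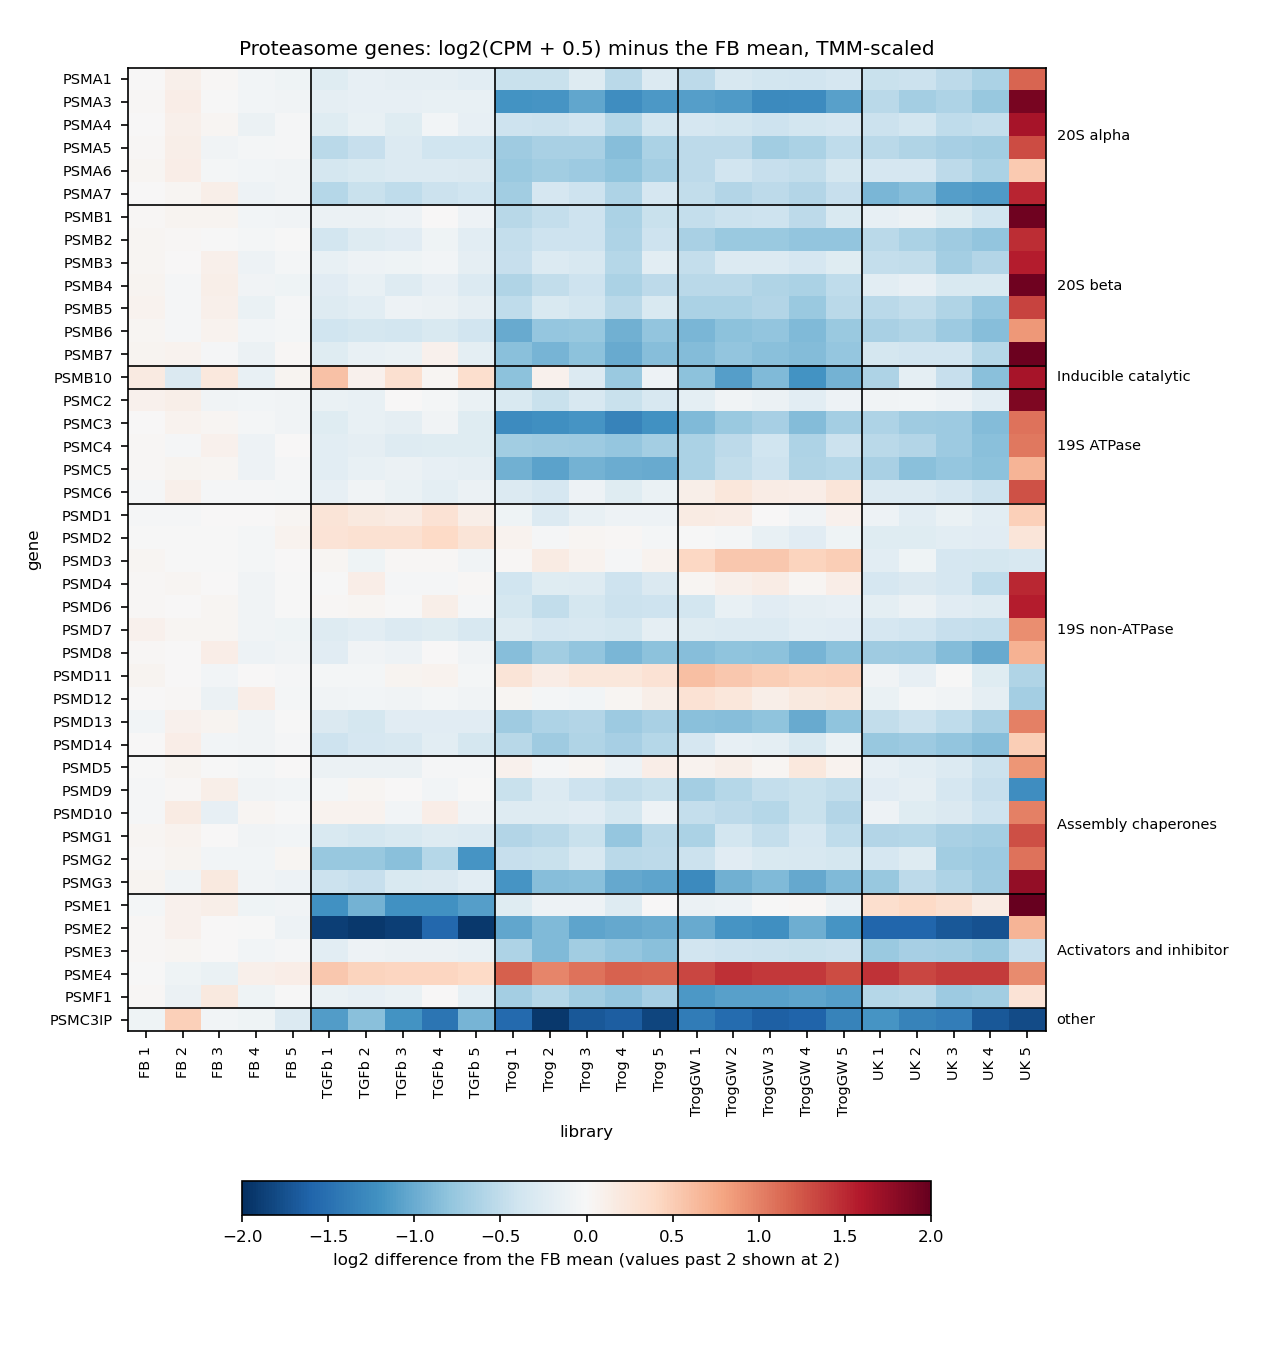
Heat map of log2(CPM + 0.5) minus the FB mean for the 42 tested genes (rows, by class) in the 25 libraries (columns), with TMM scaling. PSME2, PSME1 and PSMC3IP are dark blue in TGFb, PSME4 is red in all drug groups, and UK replicate 5 is red for most rows while UK replicates 1 to 4 are mostly pale blue.

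The share of a library's counts taken by the 44 genes is a level scaled to library totals. The 44 genes together took 0.510 ± 0.0183% of all counts in FB, 0.365 ± 0.0176% in TGFb, 0.479 ± 0.0143% in Trog and 0.581 ± 0.0185% in TrogGW (SD, n = 5). In UK the share was 0.365 ± 0.0251% without replicate 5 (n = 4) and 0.845% in replicate 5 alone. The 5 TGFb libraries, at 0.341% to 0.390%, lay below every FB, Trog and TrogGW library and overlapped the 4 other UK libraries, while every TrogGW library was above every FB library. The summed CPM with TMM scaling gave another order of TGFb and the troglitazone groups. For the 20S genes it was 1810.0 ± 74.1 in FB, 1545 ± 51.3 in TGFb, 1188 ± 74.7 in Trog and 1191 ± 39.1 in TrogGW, and for the 19S genes 2683 ± 56.1, 2667 ± 68.3, 2117 ± 42.6 and 2389.6 ± 74.5 in the same order, with both troglitazone groups below TGFb. These sums are given with no test.

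The ratio of 19S to 20S genes within a library does not depend on the scaling. The summed CPM of the 16 measured 19S genes over that of the 13 measured 20S alpha and beta genes, a ratio of read counts and not a stoichiometry, was 1.46, 1.47, 1.45, 1.52 and 1.52 in FB. It was 1.77, 1.73, 1.73, 1.71 and 1.70 in TGFb and 1.89, 1.69, 1.73, 1.91 and 1.71 in Trog. No TGFb library overlapped FB, whereas the Trog libraries spread from just below to well above the TGFb ones. The ratio was 2.03, 2.04, 2.03, 1.98 and 1.95 in TrogGW, where every library lay above every library of the other groups. It was 1.61, 1.59, 1.68 and 1.68 in UK replicates 1 to 4 and 0.879 in UK replicate 5, the lowest of all 25 libraries. Apart from that library, the UK values lay between FB and TGFb.

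**Figure D2:**
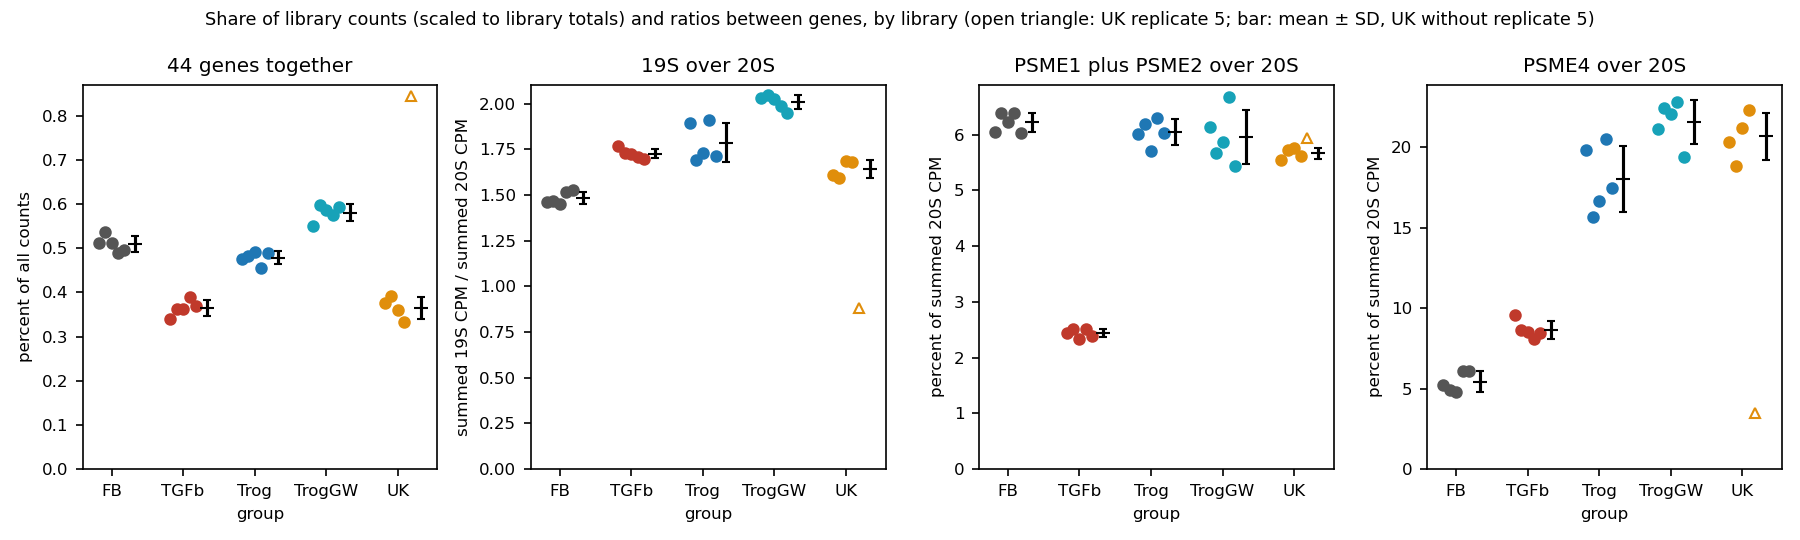
The share of library counts in the 44 genes, which is scaled to library totals, and 3 ratios that need no scaling (the 19S over 20S sum, and PSME1 plus PSME2 and PSME4 as percent of the 20S sum), by library (points) with mean ± SD (bars, UK without replicate 5). For PSME1 plus PSME2 the TGFb libraries are lowest, at 2.34% to 2.52%, and UK replicate 5 (open triangle) stands apart in the other panels.

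Among the activators, PSME1 and PSME2, which form the heteromeric PA28 alpha-beta cap, were low in TGFb and higher in FB, Trog and TrogGW, and PSME1 was also higher in UK. PSME1 was 37.3, 41.1, 42.0, 36.2 and 36.5 CPM in FB and 16.4, 19.8, 16.4, 16.3 and 17.7 in TGFb, with no overlap. It was 32.4, 35.8, 35.9, 32.2 and 38.6 in Trog and 35.6, 36.0, 38.2, 39.2 and 35.6 in TrogGW, again all above TGFb. In UK it was 48.6, 51.2, 48.1 and 43.1 in replicates 1 to 4, under TMM above every library of the other groups, and 202 in replicate 5. That order did not hold with library totals: PSME1 had 929 counts in TrogGW replicate 1 and 889 in UK replicate 1, at 20.3 M counts each. PSME1 fell by 1.15 ± 0.0685 on the log2 scale in TGFb against FB (edgeR BH-adjusted p = 8.82e-14). Against TGFb it rose by 1.01 ± 0.0712 in Trog (adjusted p = 1.05e-11), 1.09 ± 0.0646 in TrogGW (adjusted p = 4.7e-11) and 2.18 ± 0.444 in UK (adjusted p = 0.0037), the last 1.46 ± 0.0724 without replicate 5 (adjusted p = 8.84e-13) by the same test. In the RefSeq annotation of the cat PSME1 overlaps EMC9, and the strand setting of the counting is not given in the sources used here, so reads of the overlap could belong to either gene. Of the 44 genes 13 overlap another gene there, among the named ones also PSMA3, PSMA5, PSMA6, PSMC4, PSMD1, PSMD2, PSMD6, PSMD11, PSMD12, PSMD14 and PSMC3IP, and their values carry the same limit.

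PSME2 showed the largest fall of any proteasome gene in TGFb against FB, -1.86 ± 0.0645 (edgeR BH-adjusted p = 1.43e-18). It was 74.7, 78.5, 74.3, 73.2 and 69.0 CPM in FB and 19.7, 19.1, 19.7, 24.6 and 18.97 in TGFb. In Trog it was 35.7, 40.0, 35.2, 36.2 and 36.9, and in TrogGW 36.6, 32.3, 31.1, 37.2 and 32.2. These values were all above TGFb and all below FB, whereas PSME1 in these groups overlapped its FB range under TMM. With library totals PSME2 kept this place, but PSME1 in TrogGW lay above every FB library. In UK replicates 1 to 4 PSME2 was 24.2, 24.2, 22.4 and 21.7, and it was 118 in replicate 5. Replicates 1 to 4 overlapped TGFb only through TGFb replicate 4, at 24.6, and lay above the other TGFb libraries. The rises against TGFb were 0.86 ± 0.0701 in Trog and 0.74 ± 0.0780 in TrogGW. In UK the difference was 1.04 ± 0.489 with all libraries, which did not pass the test (edgeR BH-adjusted p = 0.135), and 0.18 ± 0.0804 without replicate 5, which passed narrowly (adjusted p = 0.0491).

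The PSME1 over PSME2 read ratio by group was 0.522 ± 0.0282 in FB, 0.861 ± 0.137 in TGFb, 0.951 ± 0.0750 in Trog and 1.09 ± 0.0933 in TrogGW (SD, n = 5), and 2.07 ± 0.0810 in UK without replicate 5 (n = 4). UK replicate 5, at 1.71, was below the other UK libraries, and every UK library was above every other library. As a share of the summed 20S CPM, PSME1 plus PSME2 was 6.22 ± 0.170% in FB, 2.44 ± 0.0798% in TGFb, 6.05 ± 0.228% in Trog, 5.96 ± 0.480% in TrogGW and 5.72 ± 0.150% in all 5 UK libraries. The highest TGFb library, at 2.52%, was below the lowest of the other 20, at 5.43%. No test is given for these ratios.

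PSME4, the large PA200 activator known for a role in histone degradation, was lowest in FB and higher in each later group. Its level was 97.2, 91.6, 89.2, 105 and 107 CPM in FB and 142, 134, 132, 131 and 129 in TGFb. It was 225, 192, 208, 223 and 219 in Trog and 249, 270.2, 261, 261 and 242 in TrogGW, and 267, 248, 259 and 257 in UK replicates 1 to 4. Each of these groups was clear of TGFb, and TGFb was clear of FB. UK replicate 5, at 187, was below the other UK libraries but above all TGFb ones. The rise in TGFb against FB was 0.45 ± 0.0519 (edgeR BH-adjusted p = 3.04e-08), and it was 0.07 and not called with library totals. Against TGFb PSME4 rose by 0.67 ± 0.0514 in Trog, 0.94 ± 0.0478 in TrogGW and 0.87 ± 0.114 in UK (0.95 ± 0.0498 without replicate 5), and these rises were called under both scalings, for UK without replicate 5. As a share of the 20S sum PSME4 was 5.43 ± 0.644% in FB, 8.66 ± 0.564% in TGFb, 18.03 ± 2.07% in Trog, 21.6 ± 1.36% in TrogGW and 20.7 ± 1.47% in UK without replicate 5, but 3.48% in UK replicate 5.

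**Figure D3:**
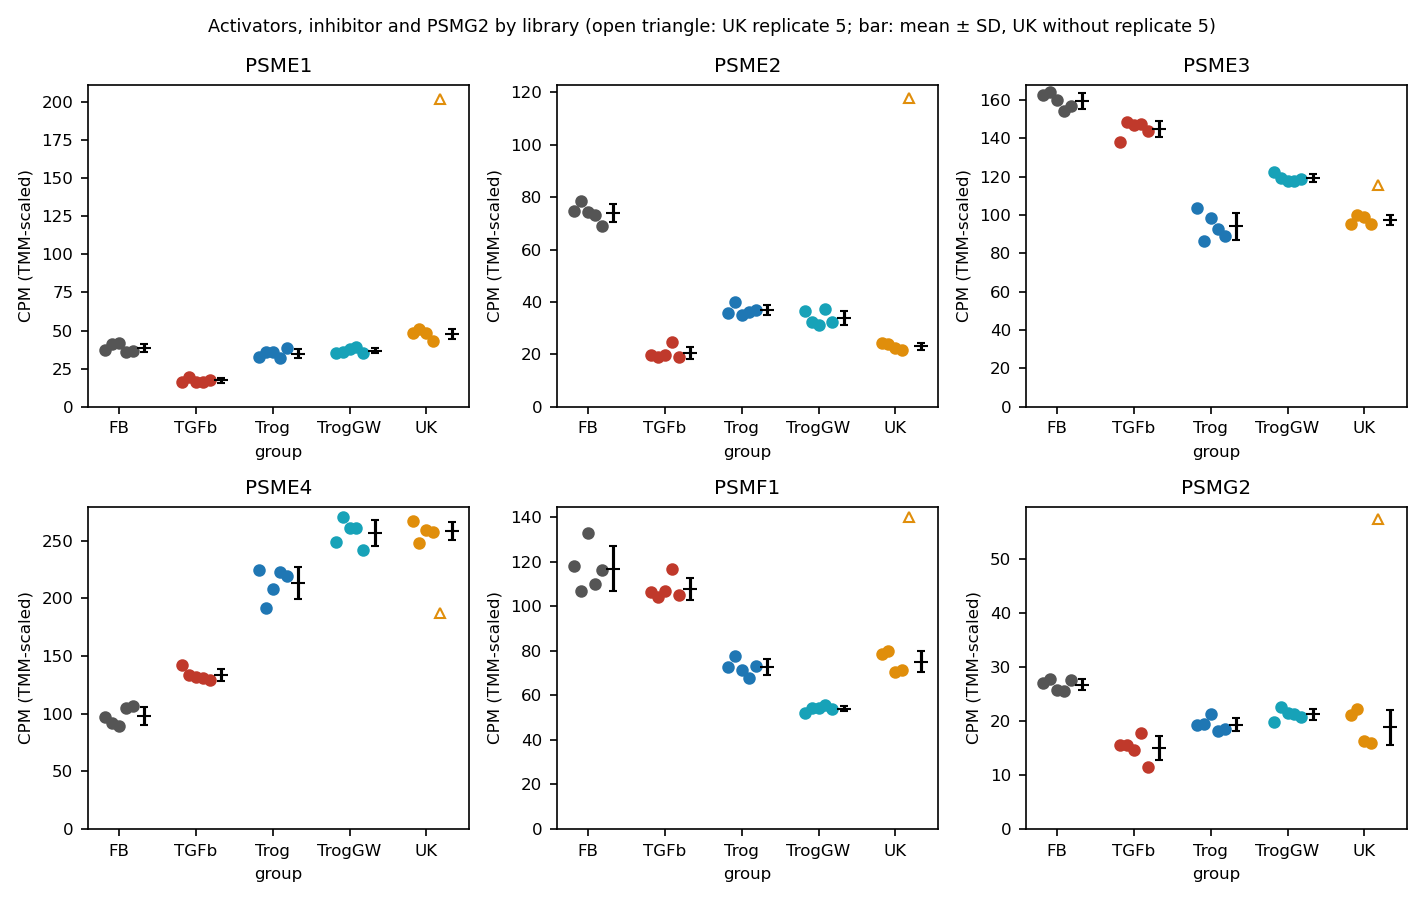
CPM with TMM scaling of PSME1, PSME2, PSME3, PSME4, PSMF1 and PSMG2 in each library (points), with mean ± SD (bars, UK without replicate 5). PSME1 and PSME2 dip in TGFb, PSME4 is higher in the 3 drug groups than in FB and TGFb, and UK replicate 5 (open triangle) is at 202 CPM for PSME1 and 118 CPM for PSME2.

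PSME3, the homomeric nuclear PA28 gamma, fell by 0.14 ± 0.0426 on the log2 scale in TGFb against FB, from 159.7 ± 4.10 to 145 ± 4.21 CPM. It was 94.2 ± 6.98 in Trog, 119 ± 2.04 in TrogGW and 97.5 ± 2.57 in UK without replicate 5, all below TGFb with no overlap. The falls against TGFb were -0.62 ± 0.0515, -0.28 ± 0.0410 and -0.57 ± 0.0485 under TMM. With library totals its difference from TGFb was 0.06 in Trog (not called), 0.57 in TrogGW (a rise) and -0.29 in UK without replicate 5 (a fall). PSMF1, also called PI31, is an inhibitor of the core in vitro. It was 118, 107, 133, 109.9 and 116 CPM in FB and 106, 104, 107, 116 and 105 in TGFb, which overlapped (edgeR BH-adjusted p = 0.0595). It was 72.5, 77.8, 71.4, 67.9 and 73.3 in Trog and 52.2, 54.3, 54.3, 55.6 and 53.7 in TrogGW, and 78.5, 79.7, 70.4 and 71.4 in UK replicates 1 to 4. Under TMM TrogGW was lowest, with no overlap with any group. With library totals it overlapped UK. In replicate 1 TrogGW had 1363 counts and UK 1434, at 20.3 M counts each. But TrogGW replicate 4 had 1602 counts at 20.9 M and UK replicate 3 had 1370 at 21.7 M. The fall against TGFb was -0.99 ± 0.0448 in TrogGW, called under both scalings, and -0.57 ± 0.0495 in Trog, where library totals gave 0.12 and no call. In UK it was -0.29 ± 0.191 with all libraries, not called, with replicate 5 at 140.2 CPM, and -0.52 ± 0.0557 without it.

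Of the 20S core, 12 of the 13 alpha and beta genes fell in TGFb against FB and 0 rose, under TMM, beside 35.3% and 32.9% of all genes, and all 13 fell with library totals, beside 64.3%. The exception under TMM was PSMB1 (-0.09 ± 0.0450, edgeR BH-adjusted p = 0.0877). The largest falls were those of the alpha subunits PSMA7 (-0.47 ± 0.0495), PSMA5 (-0.41 ± 0.0527) and PSMA6 (-0.31 ± 0.0478), and of PSMB6, the subunit with caspase-like activity (-0.36 ± 0.0436). PSMA7 was 182, 186, 197, 169.5 and 172 CPM in FB and 122, 133, 127, 135 and 137 in TGFb. These groups were well apart, while PSMB5, the subunit with chymotrypsin-like activity, was 183, 171, 186, 159 and 171 in FB and 146, 149.98, 161, 159.6 and 154 in TGFb and overlapped slightly. PSMB5 still fell by 0.17 ± 0.0489 on the log2 scale, and PSMB7, with trypsin-like activity, by 0.13 ± 0.0548 (edgeR, adjusted p = 0.00284 and adjusted p = 0.0447).

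Against TGFb, 12 of the 13 core genes fell in Trog and 12 in TrogGW under TMM, each beside 39.3% of all genes. With library totals 11 rose and 1 fell in Trog, beside 71.9% and 16.4%, and 12 rose and 1 fell in TrogGW, beside 75.9% and 15.1%. The gene that fell under both scalings in both was PSMA3, an alpha subunit. It was 152, 153, 154, 155 and 156 CPM in TGFb, 75.3, 76.0, 83.3, 72.3 and 77.4 in Trog and 80.1, 78.3, 71.3, 71.6 and 80.8 in TrogGW, so both drug groups lay far below TGFb with no overlap. The fall was -1.01 ± 0.0462 in Trog (edgeR BH-adjusted p = 4.28e-15) and -1.01 ± 0.0472 in TrogGW (adjusted p = 1.78e-12), and with library totals -0.32 and -0.16. In UK replicates 1 to 4 it was 118, 107, 113 and 102 CPM, between these and TGFb, and it was 644 in replicate 5. Of PSMB5, PSMB6 and PSMB7, PSMB7 had the largest difference from TGFb, at -0.77 ± 0.0585 in Trog and -0.70 ± 0.0570 in TrogGW, with no overlap, but -0.08 and 0.15 with library totals, not called in Trog and a rise in TrogGW. PSMA7 was not called in either under TMM and rose in both with library totals (0.68 and 0.79, against TMM values of Trog 0.00 ± 0.0639, edgeR BH-adjusted p = 0.978, and TrogGW -0.06 ± 0.0473, adjusted p = 0.259).

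In UK against TGFb the median log2 fold change of the 13 core genes was 0.43 with all 5 libraries, and the 4 genes called there were not core genes. Without replicate 5, 12 fell, beside 35.3% of all genes, and the median was -0.32, while with library totals, also without it, 3 fell, beside 20%, and 1 rose, beside 54.6%. PSMA7 had the largest fall, -0.53 ± 0.0626: UK replicates 1 to 4 were at 96.0, 99.7, 83.8 and 82.3 CPM, below all TGFb libraries, and replicate 5 was at 524. PSMB5 was 119, 123, 114 and 101.1 CPM in replicates 1 to 4 and 444 in replicate 5. Its difference from TGFb was 0.23 ± 0.397 with all libraries (edgeR BH-adjusted p = 0.713) and -0.43 ± 0.0591 without replicate 5 (adjusted p = 2.17e-06). PSMB6 and PSMB7 turned sign in the same way, from 0.14 ± 0.317 to -0.34 ± 0.0549 and from 0.58 ± 0.488 to -0.30 ± 0.0660.

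PSMB10, the interferon-inducible counterpart of PSMB7, was barely detected, with 649 counts over all libraries. Its CPM was 1.79, 1.16, 1.83, 1.33 and 1.59 in FB and 2.55, 1.64, 2.03, 1.57 and 2.05 in TGFb. It was 0.644, 1.65, 1.18, 0.709 and 1.38 in Trog and 0.651, 0.444, 0.598, 0.382 and 0.550 in TrogGW. The FB and TGFb libraries overlapped, and the TrogGW libraries lay below all of FB and TGFb. PSMB10 fell by 1.91 ± 0.220 on the log2 scale in TrogGW against TGFb (edgeR BH-adjusted p = 3.42e-07) and by 1.08 ± 0.288 in TrogGW against Trog (adjusted p = 0.00346), both also called with library totals. It also fell in Trog against TGFb under TMM (-0.83), which was not called with library totals (-0.14). UK replicates 1 to 4 were at 0.821, 1.27, 0.977 and 0.632 CPM and replicate 5 at 5.86, from 64 counts. Against TGFb PSMB10 was at -0.14 with all UK libraries, not called. Without replicate 5 it was at -1.09, and at -0.81 with library totals, both called as falls.

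Of the 16 measured 19S genes, 7 fell and 2 rose in TGFb against FB, beside 35.3% and 32.9% of all genes, with 4 of the 5 ATPases falling by little (PSMC4 -0.23 ± 0.0452, PSMC3 -0.18 ± 0.0463 and PSMC5 -0.16 ± 0.0446). Library totals gave 15 falls and 0 rises, beside 64.3% and 13.5%. PSMD14, the deubiquitinase of the lid, fell by 0.33 ± 0.0490 on the log2 scale, and PSMD13 and PSMD7 by 0.26 ± 0.0459 and 0.26 ± 0.0476. PSMD2 and PSMD1, the large scaffold subunits of the base, were higher in TGFb with no overlap, at 0.31 ± 0.0443 and 0.20 ± 0.0435, whereas with library totals PSMD2 was not called and PSMD1 fell. PSMD2 was 483, 485, 487, 473 and 512 CPM in FB and 588, 605, 599.7, 644 and 581 in TGFb.

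The ATPases PSMC3 and PSMC5 had the largest 19S falls in Trog. PSMC3 was 180.3, 193, 189, 203 and 179.8 CPM in TGFb, 88.8, 90.8, 93.7, 84.5 and 92.4 in Trog and 116, 128, 134, 117 and 133 in TrogGW. PSMC5 was 135, 141, 144, 139.8 and 138 in TGFb, 80.2, 74.3, 81.1, 77.7 and 76.9 in Trog and 100.005, 111, 117, 103 and 105 in TrogGW. For both genes TrogGW lay between Trog and TGFb, with no overlap with either. The fall in Trog against TGFb was -1.07 ± 0.0488 for PSMC3 (edgeR BH-adjusted p = 3.79e-15) and -0.84 ± 0.0446 for PSMC5 (adjusted p = 6.43e-14), and with library totals -0.39 and -0.15, still falls. In TrogGW against TGFb they were -0.59 ± 0.0548 and -0.38 ± 0.0488, but 0.26 and 0.47 with library totals, which were rises. In UK against TGFb without replicate 5 they fell by 0.55 ± 0.0580 and 0.61 ± 0.0523, under both scalings.

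PSMD8, a lid subunit, had the largest fall among the non-ATPase genes in each comparison with TGFb, at -0.72 ± 0.0523 in Trog, -0.76 ± 0.0488 in TrogGW and -0.74 ± 0.0656 in UK without replicate 5. Library totals gave -0.04 and 0.09 in the troglitazone groups, neither called, and -0.46 in UK, a fall. PSMD11 and PSMD3, also of the lid, rose in TrogGW under both scalings, by 0.51 ± 0.0464 and 0.50 ± 0.0463 under TMM. PSMD11 was 100.7, 100.5, 108, 109 and 100.9 CPM in TGFb, 124, 115, 121, 121 and 126 in Trog and 157, 150.2, 145, 141 and 143 in TrogGW, 3 groups without overlap. PSMD3 was 126, 116, 125, 125 and 118 in TGFb, 125, 138, 129, 120.4 and 129 in Trog and 164, 179, 179, 167 and 174 in TrogGW, where only TrogGW stood apart. Of the 16 measured 19S genes 11 fell and 1 rose in Trog under TMM, beside 39.3% and 42.4% of all genes, and 8 fell and 4 rose in TrogGW, beside 39.3% and 46.6%. With library totals 13 rose and 2 fell in Trog, beside 71.9% and 16.4%, and 15 rose and 0 fell in TrogGW, beside 75.9% and 15.1%.

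**Figure D4:**
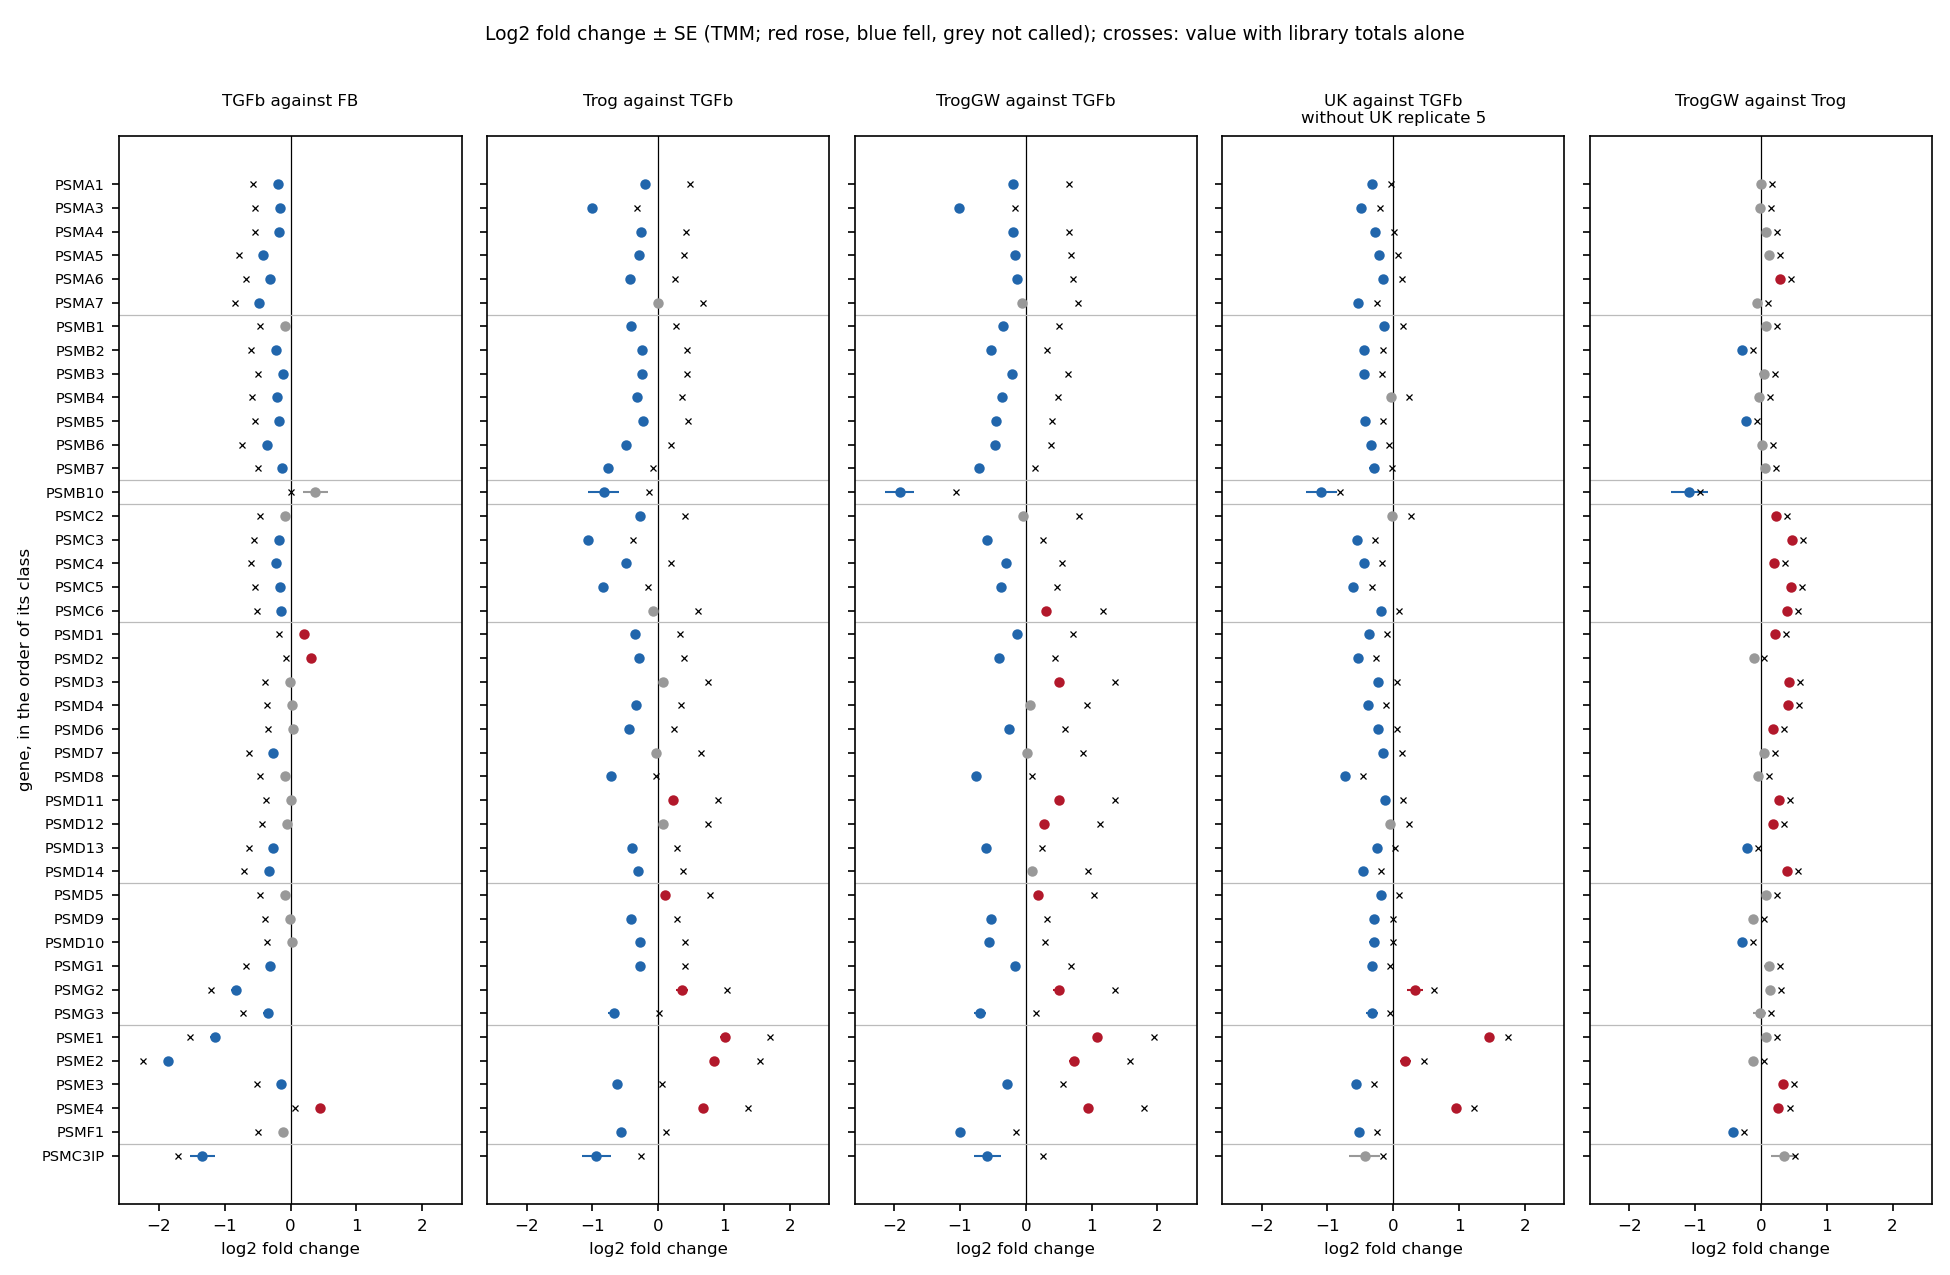
Log2 fold change ± SE of the 42 tested genes (rows, by class) in 5 comparisons (UK without replicate 5) with TMM scaling, coloured by call, with crosses for the value with library totals alone. In Trog and TrogGW against TGFb most circles lie left of 0 and most crosses right of it, whereas in TrogGW against Trog all 5 ATPase genes and most PSMD genes lie right of 0 on both.

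Adding GW9662 to troglitazone, the comparison of TrogGW with Trog, went with higher 19S genes. Of the 42 genes 15 rose (35.7%), near the 35.1% of all genes, and 6 fell (14.3%), beside 34.3%. With library totals 31 rose, beside 48.4%, and 2 fell, beside 22.6%. The 15 that rose under TMM also rose with library totals, which shifted all genes upwards here, so this is no separate support. The 15 held 12 of the 16 measured 19S genes (75%, beside the 35.1% of all genes), among them all 5 ATPases. Of the 13 core genes they held 1 (7.69%), PSMA6 (0.29 ± 0.0479). The ATPases were led by PSMC3 (0.48 ± 0.0542, edgeR BH-adjusted p = 1.37e-06), PSMC5 (0.46 ± 0.0514) and PSMC6 (0.40 ± 0.0535), with no overlap between the groups. PSMC6 was 116, 112, 131, 118 and 128 CPM in Trog and 153, 166, 157, 155 and 166 in TrogGW. Of the lid and base genes PSMD3 rose by 0.43 ± 0.0497, the ubiquitin receptor PSMD4 by 0.41 ± 0.0498 and PSMD14 by 0.40 ± 0.0529. PSMD13 fell by 0.21 ± 0.0513, a call that library totals did not give (-0.04).

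The catalytic and cap genes were mixed in this comparison. PSMB5 was 121, 141, 134, 119.6 and 140.5 CPM in Trog and 112, 112, 116, 104 and 119.7 in TrogGW, a fall of 0.22 ± 0.0590 on the log2 scale (edgeR BH-adjusted p = 0.00358) with overlap at the edge, and PSMB2 fell by 0.28 ± 0.0533. Neither fall was called with library totals (-0.05 and -0.12). PSMB6, PSMB7 and PSME1 were not called under TMM (0.02 ± 0.0583, 0.06 ± 0.0488 and 0.08 ± 0.0601) and rose with library totals (0.19, 0.23 and 0.25). PSME2 was at -0.12 ± 0.0629, not called under either scaling. PSMF1 fell by 0.43 ± 0.0469 and PSME3 and PSME4 rose by 0.34 ± 0.0523 and 0.27 ± 0.0558 under TMM, all also called in that direction with library totals.

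The assembly chaperones, which help build the core and the 19S base and are not part of the finished particle, fell in part in TGFb against FB: 3 of 6 fell under TMM, beside 35.3% of all genes, and all 6 with library totals, beside 64.3%. PSMG2, which pairs with PSMG1 to assemble the alpha ring, was 27.1, 27.8, 25.7, 25.6 and 27.6 CPM in FB and 15.6, 15.6, 14.7, 17.8 and 11.6 in TGFb. Its groups did not overlap, and it fell by 0.83 ± 0.0813 on the log2 scale (edgeR BH-adjusted p = 1.44e-09), against -0.31 ± 0.0539 for PSMG1 and -0.35 ± 0.0782 for PSMG3. PSMG2 was 19.2, 19.5, 21.3, 18.2 and 18.5 in Trog and 19.8, 22.7, 21.6, 21.3 and 20.8 in TrogGW, under TMM above all TGFb libraries and below all FB ones. The place below FB did not hold with library totals. Most TrogGW libraries then lay above every FB library, and Trog replicate 3 overlapped FB. TrogGW replicate 4 had 614 counts at 20.9 M counts, and FB replicate 4 had 599 at 24.2 M. Against TGFb PSMG2 rose by 0.36 ± 0.0877 in Trog and 0.50 ± 0.0889 in TrogGW under TMM, both also called with library totals. PSMG1 and PSMG3 moved otherwise: under TMM they fell by 0.28 ± 0.0632 and 0.68 ± 0.0866 in Trog and by 0.16 ± 0.0612 and 0.69 ± 0.0909 in TrogGW, and with library totals PSMG1 rose (0.41 and 0.69) and PSMG3 was not called (0.01 and 0.16). PSMD9 and PSMD10, chaperones of the 19S base, were at -0.53 ± 0.0527 and -0.55 ± 0.0556 in TrogGW under TMM, and PSMD5, of the same kind, at 0.18 ± 0.0463. All 3 were rises with library totals. In UK replicates 1 to 4 PSMG2 was 21.2, 22.2, 16.3 and 15.9 CPM, a rise of 0.33 ± 0.116 over TGFb with libraries that overlapped under TMM.

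UK against Trog compared drugs given at different doses, so the values stand side by side. With all UK libraries 4 genes were higher in UK, beside 22.5% of genes, and 2 lower, beside 20.1%. Without replicate 5, 13 were higher, beside 36.8%, and 11 lower, beside 37.2%, and with library totals and without that library 0 were higher, beside 19.5%, and 32 lower, beside 60.4%. The 11 lower genes under TMM stayed lower with library totals, which shifted all genes downwards here. They were led by PSME2 (-0.67 ± 0.0666) and PSMA7 (-0.53 ± 0.0817). PSMD11 and PSMD3 were lower with and without replicate 5 (-0.35 ± 0.0577 and -0.30 ± 0.0634 without it). PSMA3, PSMC3, PSMB7 and PSME1, the 4 that were higher with all libraries, were at 0.52 ± 0.0585, 0.51 ± 0.0579, 0.47 ± 0.0606 and 0.45 ± 0.0701 without replicate 5 under TMM. With library totals they were at 0.11, 0.11, 0.07 and 0.05, none of them a rise.

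UK replicate 5 was far above the other UK libraries for most proteasome genes. Of the 42 genes 36 were higher there than in each of the 4 others, beside 44.2% of all genes, and 31 were more than 2-fold above the mean of the others, beside 21.7%. Ratios were taken after adding 0.5 CPM, and the median ratio was 3.10 for the 42 genes and 0.973 for all genes. PSMA3 was highest, at 644 CPM against a mean of 110.1 in the others, a ratio of 5.83, and all 7 beta subunits lay between 2.97 and 5.20. The 5 ATPases lay between 2.71 and 3.95 and the 11 other 19S genes between 0.674 and 3.67. PSME4, PSMD9, PSMD11, PSMD12 and PSMC3IP were below all 4 other UK libraries. The stromal markers PDGFRA and PDGFRB were also far lower there (29.5 and 29.2 CPM, against means of 299 and 216 in the others). So were FN1 (11691 against 48977 CPM) and COL5A1 (1116 against 4293). COL1A1, COL1A2, COL3A1, DCN and FAP were lower by less. Of the same list S100A4 (1426 against 199 CPM) and LUM (6716 against 2907) were higher, as was THY1 at only 0.274 CPM. What set this library apart was not tested.

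**Figure D5:**
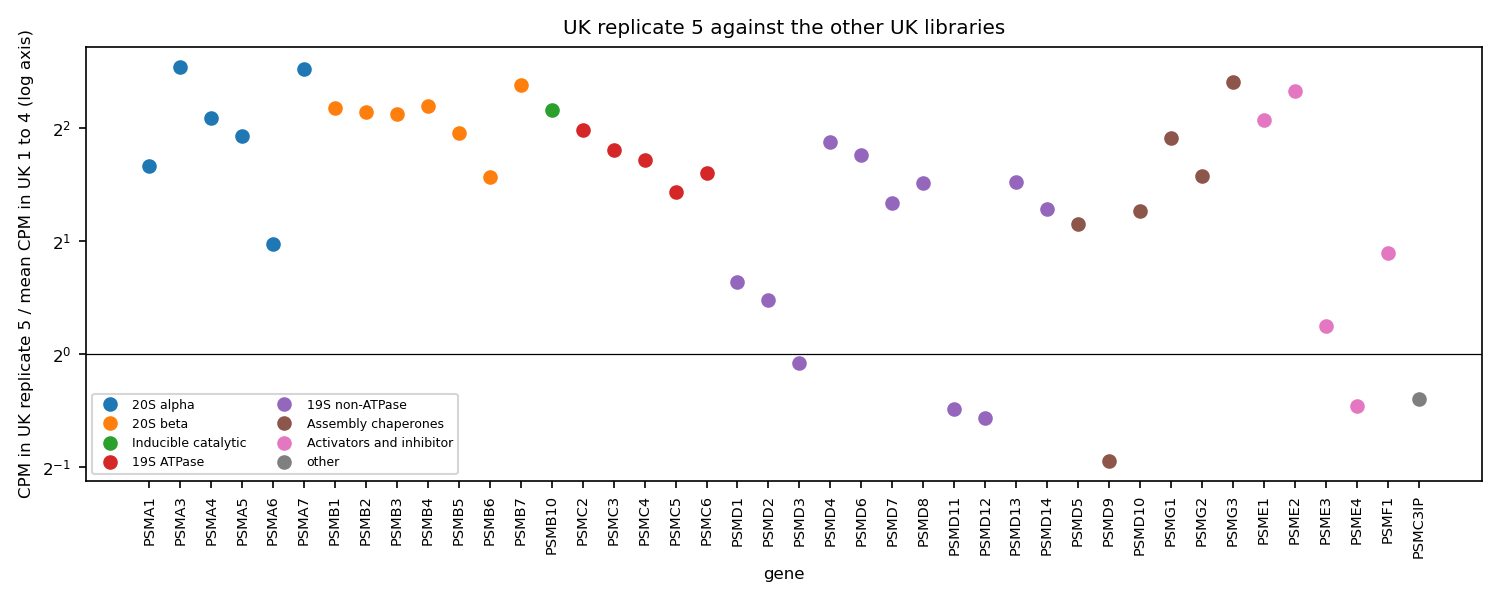
CPM in UK replicate 5 over the mean CPM of UK replicates 1 to 4, each after adding 0.5, on a log axis, for the 42 tested genes coloured by class. The 20S alpha and beta genes lie between 1.97 and 5.83, while PSMD3, PSMD11, PSMD12, PSMD9, PSME4 and PSMC3IP lie below 1.

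Across the 5 groups, with UK taken without replicate 5, FB had the highest mean CPM for 29 of the 42 genes, beside 22.3% of all genes. The lowest mean was in UK for 15 genes, beside 19.6% of all genes, in Trog for 12, beside 15%, in TrogGW for 11, beside 24%, in TGFb for 3, beside 19.8%, and in FB for 1, beside 21.6%. The genes lowest in TGFb were PSME1, PSME2 and PSMG2, and the gene lowest in FB was PSME4. The highest group mean was a median 1.65 times the lowest, against 2.30 for all genes tested. PSMC3IP had the widest range, 4.87-fold, followed by PSMB10, 3.75-fold, both at low counts, and PSME2, 3.62-fold. PSMC3IP fell by 1.34 ± 0.187 on the log2 scale in TGFb against FB and by 0.94 ± 0.216 in Trog against TGFb, the latter not called with library totals (-0.26). These orders use TMM scaling and need not hold with library totals. The proteasome genes' share of all counts was 0.581% in TrogGW and 0.510% in FB, with every TrogGW library above every FB library.

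The wider proteasome pathway was read from a list of 29 partners and ubiquitin supply genes, of which 21 were in the files and all were tested. In TGFb against FB 4 rose and 7 fell under TMM, beside 32.9% and 35.3% of all genes, and 1 and 17 with library totals, beside 13.5% and 64.3%. In Trog against TGFb 11 rose and 9 fell, beside 42.4% and 39.3% (16 and 2 with totals, beside 71.9% and 16.4%). In TrogGW 10 rose and 6 fell, beside 46.6% and 39.3% (17 and 1 with totals, beside 75.9% and 15.1%). These counts describe the list, and the shares of its genes called lie near those of all genes in several of them. NFE2L1, the transcription factor that drives proteasome genes when proteasome activity is low, was 577, 573, 574, 578 and 586 CPM in FB and 1022, 921, 896, 951 and 913 in TGFb. It was 2585, 2545, 2572, 2755 and 2513 in Trog and 2134, 1715, 1618, 1510.3 and 1847 in TrogGW. FB, TGFb, TrogGW and Trog were in this order with no overlap between neighbours. Its rise was 0.70 ± 0.0454 in TGFb against FB, 1.46 ± 0.0590 in Trog and 0.91 ± 0.0895 in TrogGW against TGFb, and it fell by 0.56 ± 0.0860 in TrogGW against Trog, all also called with library totals. In UK against TGFb it was 0.16 ± 0.114, not called, and 0.23 ± 0.0595 without replicate 5, a rise.

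POMP, the maturation factor of the core, was 80.5, 89.0, 93.0, 97.6 and 93.8 CPM in TGFb, 52.3, 51.3, 56.7, 47.5 and 52.7 in Trog and 47.0, 50.1, 45.5, 45.0 and 49.5 in TrogGW. It fell by 0.80 ± 0.0578 and 0.94 ± 0.0557 on the log2 scale under TMM, with no overlap, but was not called with library totals (-0.12 and -0.09). In UK replicate 5 it was 318 CPM, against 77.4, 71.2, 74.1 and 62.3 in the other UK libraries. The ubiquitin ligase UBE3C rose by 1.36 ± 0.0485 in Trog, and the proteasome adaptor ECPAS by 1.06 ± 0.0587 in TrogGW. RAD23B, a shuttle of ubiquitinated proteins, fell by 0.88 ± 0.0497 in Trog and 1.25 ± 0.0553 in TrogGW under TMM, and also with library totals, at -0.19 and -0.40. In UK against TGFb 2 of the 21 rose and 5 fell, beside 16.9% and 15.2% of all genes, and 6 and 13 without replicate 5, beside 36% and 35.3% (8 and 5 with library totals, beside 54.6% and 20%). In TrogGW against Trog 6 rose and 9 fell, beside 35.1% and 34.3% (9 and 5 with totals, beside 48.4% and 22.6%), led upwards by AKIRIN2, a factor for nuclear import of proteasomes (0.62 ± 0.0578), and UFD1, a cofactor of the segregase VCP (0.62 ± 0.0571).

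Of 12 genes of MHC class I peptide supply, 8 were in the files and all were tested. In TGFb against FB 4 rose and 4 fell, beside 32.9% and 35.3% of all genes (2 and 6 with library totals, beside 13.5% and 64.3%), with falls of the interferon-responsive factor IRF1 (-1.48 ± 0.0786) and of NLRC5, the transactivator of MHC class I genes (-1.10 ± 0.1001), and a rise of the chaperone PDIA3 (0.65 ± 0.0518). In Trog against TGFb 4 rose and 4 fell, beside 42.4% and 39.3% (6 and 1 with totals, beside 71.9% and 16.4%). In TrogGW 3 rose and 4 fell, beside 46.6% and 39.3% (5 and 2 with totals, beside 75.9% and 15.1%). IRF1 was 24.1, 24.9, 21.1, 22.2 and 22.5 CPM in FB and 8.55, 7.55, 8.80, 7.54 and 8.65 in TGFb. It was 84.8, 105, 69.9, 81.4 and 77.4 in Trog and 40.4, 34.5, 32.8, 36.5 and 41.7 in TrogGW, and 6.40, 6.42, 7.66, 8.62 and 5.49 in UK. IRF1 was lower in TGFb than in FB and above FB in Trog, where PSME1 overlapped FB and PSME2 lay below it. In UK IRF1 overlapped TGFb and was not called (-0.24 ± 0.145, and -0.17 ± 0.111 without replicate 5), whereas PSME1 did not overlap TGFb. PSME2 in UK replicates 1 to 4 overlapped TGFb under TMM only through TGFb replicate 4. It was called a rise without UK replicate 5. NLRC5 rose against TGFb in all 3, by 2.17 ± 0.0974 in Trog, 1.92 ± 0.163 in TrogGW and 1.75 ± 0.173 in UK (1.84 ± 0.113 without replicate 5). In UK against TGFb 1 of the 8 rose and 2 fell, beside 16.9% and 15.2%, and 2 and 4 without replicate 5, beside 36% and 35.3% (4 and 2 with library totals, beside 54.6% and 20%). In TrogGW against Trog 0 rose and 6 fell, beside 35.1% and 34.3% (0 and 5 with totals, beside 48.4% and 22.6%), with IRF1 at -1.17 ± 0.0967, the peptidase ERAP1 at -0.86 ± 0.0563 and PDIA3 at -0.75 ± 0.0640. In UK against Trog without replicate 5, 1 of these 8 was higher and 6 lower, beside 36.8% and 37.2% of all genes (0 and 7 with totals, beside 19.5% and 60.4%), with IRF1 at -3.52 ± 0.122. Of the 21 partners 5 were higher and 10 lower beside the same shares (1 and 17 with totals), with NFE2L1 at -1.23 ± 0.0686 and POMP at 0.45 ± 0.0687. POMP was not called there with library totals (0.05).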

How the data were processed

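The authors deposited 1 table of raw read counts per library, with 13949 gene symbols, and these counts were used as deposited. Tools listed, per the submitters' processing notes, are Salmon 1.5.2, featureCounts, STAR 2.7.9a, fastp 0.23.1 and Subread 2.0.1. These notes assign them no role, and the genome build, annotation and strand setting are not given in the sources used here. Per the labels' protocols, stranded polyA libraries were made from 200 ng of total RNA.

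Each of 6 comparisons was fitted on its own 10 libraries with edgeR 4.0.16 (R 4.3.3; TMM, quasi-likelihood test, Benjamini-Hochberg adjustment over 10699 genes), so that UK replicate 5 enters the estimate of spread only in its own comparisons. Genes were kept by filterByExpr (minimum count 10, minimum total 15) over all libraries. Counts per library were 14.8 to 25.2 M. The heat map adds 0.5 CPM before taking logs. DESeq2 1.42.0 was an alternative, and figures were drawn with matplotlib 3.10.9.

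Named genes were the catalytic, activator and inhibitor genes in every comparison, up to 3 called members a class with the largest change in its more frequent direction and up to 2 in the other, the highest and lowest member, and, of the partner lists, NFE2L1, POMP and IRF1 and up to 3 called members. Genes named outside this rule to show a level or a sign were chosen after their values were seen. The members and lists were chosen with earlier results of these data known. RefSeq's table of the assembly F.catus_Fca126_mat1.0 was used for names and overlaps only, and all 44 genes matched. On simulated counts for TGFb against FB with 10699 genes, the test called 94 of 100 genes changed by 1.5-fold, 74 of 100 at 1.25-fold and 10 of 10499 genes left unchanged. The changed genes were drawn from those with a mean above 1 CPM, so these rates do not cover genes below that level. The simulation used the spread fitted to the data and the library scaling it was drawn from, and changed few genes. In the data 32.9% of genes rose and 35.3% fell, so these rates do not cover errors of the scaling.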

Additional observations from a re-analysis of the deposited data

Results flagged for a closer look

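In a group of 5 libraries a value was singled out where the highest or lowest library stood far from the nearest other one, measured as a part of the group's range. Chance singles out about 1 in 20 groups. Most of these values were those of UK replicate 5, for which 38 of the 42 tested genes met the criterion. The share of all genes that met it in this library is not given here. This library lay above every other UK library for 44.2% of all genes tested and below all of them for 45.6%. The count of 38 is therefore not read as particular to the proteasome genes.

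Of the catalytic genes, UK replicate 5 was at 444 CPM for PSMB5, where the other UK libraries lay between 101.1 and 122.8, at 288 for PSMB6 (87.6 to 103.8), at 608 for PSMB7 (104.8 to 122.7) and at 5.86 for PSMB10 (0.632 to 1.27). Of the cap and inhibitor genes it was at 202 CPM for PSME1 (43.1 to 51.2), 118 for PSME2 (21.7 to 24.2), 116 for PSME3 (95.3 to 100.3) and 140.2 for PSMF1 (70.4 to 79.7), and lowest, at 187, for PSME4 (248 to 267). Summed CPM in UK replicate 5 was 5389 for the 20S core (1152 to 1317 in the others), 4738 for the 19S genes (1938 to 2113), 1831 for the ATPases (504 to 578), 2907 for the other 19S genes (1434 to 1542) and 320.1 for PSME1 plus PSME2 (64.8 to 75.4). The proteasome genes took 0.845% of its counts (0.333% to 0.391% in the others). Its 19S over 20S ratio was 0.879 (1.59 to 1.68), its PSME4 share of the 20S sum 3.48% (18.8% to 22.3%) and its PSME4 over PSMF1 ratio 1.34 (3.11 to 3.68).

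In the other groups, TGFb replicate 4 was highest for PSME2, at 24.6 CPM (18.97 to 19.7 in the others), and for PSMF1, at 116 (104 to 107). TrogGW replicate 1 was highest for PSME3, at 123 CPM (118 to 119), and FB replicate 4 was lowest for the summed 19S non-ATPase genes, at 1851 CPM (1911 to 1929.9).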

How the results depend on the processing

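Alternatives were 1 fit of all 25 libraries, the same without UK replicate 5, DESeq2 size factors, library totals, no filter on low counts, DESeq2, the replicate block and leaving out each library, plus library totals without UK replicate 5, which was chosen after seeing the data. Counts of members called stayed within 1.5 times of the reported ones except in the cases given here. With all 25 libraries in 1 fit, 4 fell in TGFb against FB, 13 fell in Trog against TGFb, 5 rose and 11 fell in TrogGW against TGFb, 6 rose and 6 fell in UK against TGFb, 4 rose and 1 fell in TrogGW against Trog, and 17 rose in UK against Trog. All libraries but UK replicate 5 in 1 fit, run for the 4 comparisons without the UK group, moved none of their counts past that limit.

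With library totals alone, 0 rose in TGFb against FB, 32 rose and 3 fell in Trog against TGFb, 36 rose and 3 fell in TrogGW against TGFb, 1 fell in UK against TGFb, 31 rose and 2 fell in TrogGW against Trog, and 0 rose and 6 fell in UK against Trog. With library totals and without UK replicate 5, 8 rose and 12 fell in UK against TGFb and 0 rose and 32 fell in UK against Trog. DESeq2 called 1 higher in UK against TGFb and 2 higher in UK against Trog, and without the filter 2 were higher in UK against Trog.

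The replicate block, with the replicate number as a term, left 1 fall in UK against TGFb and 0 rises and 0 falls in UK against Trog, and moved no other count past 1.5 times. The numbers did not pair the libraries: deviations of same-numbered libraries correlated at between -0.27 and 0.43 over the 6 comparisons, and at most 2 of 5 libraries correlated best with their own number.

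Leaving out 1 library gave 2 to 4 rises and 1 to 34 falls in UK against TGFb, with 4 and 34 without UK replicate 5 and 1 fall without TGFb replicate 4 or without UK replicate 2. In UK against Trog it gave 0 to 13 rises and 1 to 11 falls: 13 and 11 without UK replicate 5, 0 rises without any 1 Trog library, and 1 fall without Trog replicate 2, 3 or 5 or UK replicate 3 or 4.

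Signs of log2 fold changes of named genes turned as follows, and the cause was not tested. With library totals, TGFb against FB turned for PSMD1 -0.17 and PSMD2 -0.069. Trog against TGFb turned for PSMA5 0.39, PSMG1 0.41, PSMA6 0.26, PSMB5 0.45, PSMF1 0.12, PSMD13 0.29, PSMC4 0.19, PSMB6 0.19, PSME3 0.060, PSMG3 0.0071, PSMD6 0.25, PSMB1 0.26 and PSMD9 0.28. TrogGW against TGFb turned for PSMB2 0.33, PSMD2 0.45, PSMB5 0.40, PSMD13 0.25, PSMC3 0.26, PSMB7 0.15, PSMC4 0.56, PSMB6 0.38, PSMC3IP 0.27, PSME3 0.57, PSMC5 0.47, PSMG3 0.16, PSMD9 0.33, PSMD8 0.092, PSMA4 0.65, PSMD10 0.30 and PSMA1 0.66. UK against Trog turned for PSME3 -0.36. Leaving out 1 library, UK against TGFb ranged from -0.43 to 0.38 for PSMB5, -0.34 to 0.26 for PSMB6 and -0.30 to 0.76 for PSMB7, and UK against Trog from -0.67 to 0.35 for PSME2 and -0.20 to 0.61 for PSMB5, each lowest and below 0 without UK replicate 5. With library totals and without UK replicate 5, UK against Trog turned for PSME2 -1.08, PSMB5 -0.60, PSMF1 -0.36, PSMB10 -0.67, PSMB6 -0.25 and PSME3 -0.35.

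With 14.8 to 25.2 M counts a library, PSMB10 had 11 to 64 counts and PSMC3IP 8 to 108, so small differences of these genes were not detectable at this depth. Genes absent from the tables were not analysed here, and near-identical copies were not looked for.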
